A study of Mus musculus with 6 samples.

Results

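The genes described here code for 10 proteins that coat the lipid droplets of the liver or release fat from them: the perilipins Plin2, Plin4 and Plin5, the CIDE proteins Cideb and Cidec, the lipases Pnpla2, Lipe and Pnpla3, and the lipase inhibitors G0s2 and Hilpda. They were chosen by symbol, and all 10 were found among the 40803 genes of the count table. Liver RNA came from 6 C57BL6 mice, 1 library per mouse. In the rAAV8-Scramble group (n = 3) the mice carried a scrambled short hairpin RNA (shRNA), and in the rAAV8-Hnf1aos1 group (n = 3) an shRNA against Hnf1aos1, a long non-coding RNA. The vector, rAAV8, is an engineered adeno-associated virus of a serotype that takes well to hepatocytes, and it was injected into the tail vein. Both groups were wild-type males of about 6 weeks at injection that received the virus, so no library shows a liver without vector, and the U6 promoter of the knockdown vector is not specific to a cell type. Per the study's methods and labels, the mice ate a normal diet freely, and livers were taken 4 weeks after the injection. The comparison asks how the liver's transcripts differ when Hnf1aos1 is knocked down.

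A lipid droplet is a core of triglyceride and cholesterol ester under a single layer of phospholipid, and the perilipins sit on that layer and control which enzymes reach the core. CIDE proteins join droplets at their contact sites and move lipid from small droplets to larger ones, and Cideb also takes part in loading lipid onto very-low-density lipoprotein. Lipolysis proceeds in steps: Pnpla2 (adipose triglyceride lipase) removes the first fatty acid from triglyceride, hormone-sensitive lipase (Lipe) acts mainly on the diglyceride, and monoglyceride lipase (Mgll) on what remains. Abhd5 activates Pnpla2, while G0s2 and Hilpda bind and inhibit it. In the liver these proteins help set how much fat is stored, burned or secreted.

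Counts of mouse genes summed to between 14704746 and 19462398 per library, and the sums of all 3 rAAV8-Hnf1aos1 libraries were higher than those of the rAAV8-Scramble libraries. Synthetic ERCC spike-in RNAs took 1.38% to 1.52% of the counts in rAAV8-Scramble and 1.19% to 1.25% in rAAV8-Hnf1aos1. Values below are raw counts scaled by TMM library factors (normalized counts), unless they are called TPM, which is also scaled by transcript length. Hnf1aos1 itself had 512, 491 and 620 normalized counts in rAAV8-Scramble replicates 1, 2 and 3, and 279, 259 and 433 in rAAV8-Hnf1aos1 replicates 1, 2 and 3. The groups did not overlap, with a log2 fold change of -0.74 ± 0.20 (SE) and an adjusted p of 0.0625 by edgeR's quasi-likelihood test, which misses the threshold of 0.05. In DESeq2 its adjusted p was 0.00346. Without rAAV8-Hnf1aos1 replicate 3, its highest knockdown library, edgeR gave 0.000261. With any other library left out, the adjusted p was 0.113 to 0.218 by edgeR, above the threshold. The hepatocyte markers, albumin among them, were the most abundant of the marker lists in every library, at a summed 61022 to 74249 TPM.

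Of the 10 genes, 1 was lower after the knockdown by edgeR, Plin5, and 0 were higher in edgeR or DESeq2. Across all 16327 genes tested, 6.32% were called, 3.23% lower and 3.09% higher. Fold changes of the 10 genes had a median of -0.11 on the log2 scale, beside -0.00040 over all genes tested, with 6 below 0 and 4 above. Unadjusted p-values from edgeR lay under 0.05 for 3 of the 10, G0s2, Plin5 and Plin4, all of them lower, against 23.4% of all genes in either direction. DESeq2 called these 3 genes lower, with 3.39% of its tested genes called lower. The groups did not overlap for 2 of the 10, Plin5 and G0s2, and this share is not above the 28.9% of all tested genes whose groups did not overlap. G0s2 nevertheless had one of the lower fold changes in the liver, since 0.802% of tested genes had a log2 fold change as low or lower, compared with 6.28% for Plin5.

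**Figure D1:**
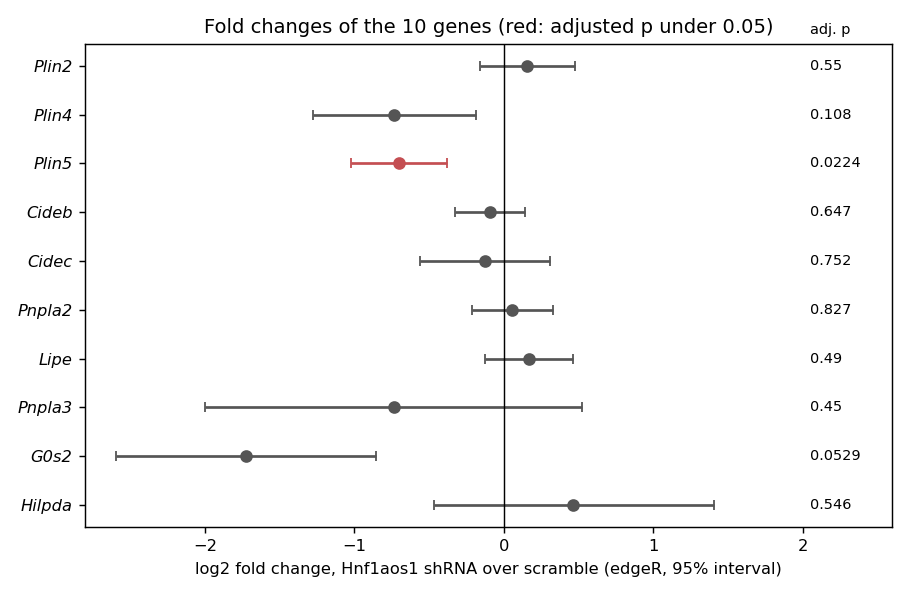
Log2 fold change of each gene in rAAV8-Hnf1aos1 over rAAV8-Scramble (points) with its 95% interval (bars), from edgeR, 3 mice per group, and the adjusted p at the right. Only the intervals of Plin4, Plin5 and G0s2 lie wholly below 0, and only Plin5 (red) has an adjusted p under the threshold.

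Among the perilipins, Plin5 fell and the main liver perilipin, Plin2, did not pass the test. Plin5 is the perilipin of tissues that burn fat, where it ties droplets to mitochondria. Its normalized counts were 436, 496 and 518 in rAAV8-Scramble replicates 1, 2 and 3, and 227, 334 and 331 in rAAV8-Hnf1aos1 replicates 1, 2 and 3. The lowest rAAV8-Scramble library stood above the highest rAAV8-Hnf1aos1 library, and rAAV8-Hnf1aos1 replicate 1 was the lowest of all. Plin5 was thus at 61.5% of the rAAV8-Scramble level (95% interval 49.2% to 76.9%), a log2 fold change of -0.70 ± 0.15 (SE) with an adjusted p of 0.0224 by edgeR. DESeq2 gave an adjusted p of 0.00160. The call was lost without rAAV8-Scramble replicate 2 (log2 fold change -0.69, adjusted p = 0.0702 by edgeR) and without rAAV8-Scramble replicate 3 (-0.66, adjusted p = 0.121). When each of the other 4 libraries was left out in turn, Plin5 was called.

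Plin4, which coats droplets rich in neutral lipid mainly in adipose tissue and muscle, had 181, 308 and 302 normalized counts in rAAV8-Scramble replicates 1, 2 and 3 and 153, 124 and 199 in rAAV8-Hnf1aos1 replicates 1, 2 and 3. Its groups overlapped, because rAAV8-Scramble replicate 1 lay below rAAV8-Hnf1aos1 replicate 3. The log2 fold change was -0.73 ± 0.24 (SE), near that of Plin5 in size but with a wider interval (-1.28 to -0.19), and the adjusted p was 0.108 by edgeR and 0.0291 by DESeq2. edgeR called it lower without rAAV8-Scramble replicate 1 (-0.94, adjusted p = 0.0247) or without rAAV8-Hnf1aos1 replicate 3 (-0.93, adjusted p = 0.0346).

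Plin2, which coats droplets in nearly every cell and is degraded when it has no lipid to bind, had 6782, 9680 and 7935 normalized counts in rAAV8-Scramble replicates 1, 2 and 3 and 9329, 10176 and 7708 in rAAV8-Hnf1aos1 replicates 1, 2 and 3. The groups overlapped widely. The log2 fold change was 0.16 (95% interval -0.16 to 0.48, adjusted p = 0.550 by edgeR), so changes between a fall to 89.4% and a rise to 139% of the rAAV8-Scramble level lie within the interval.

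**Figure D2:**
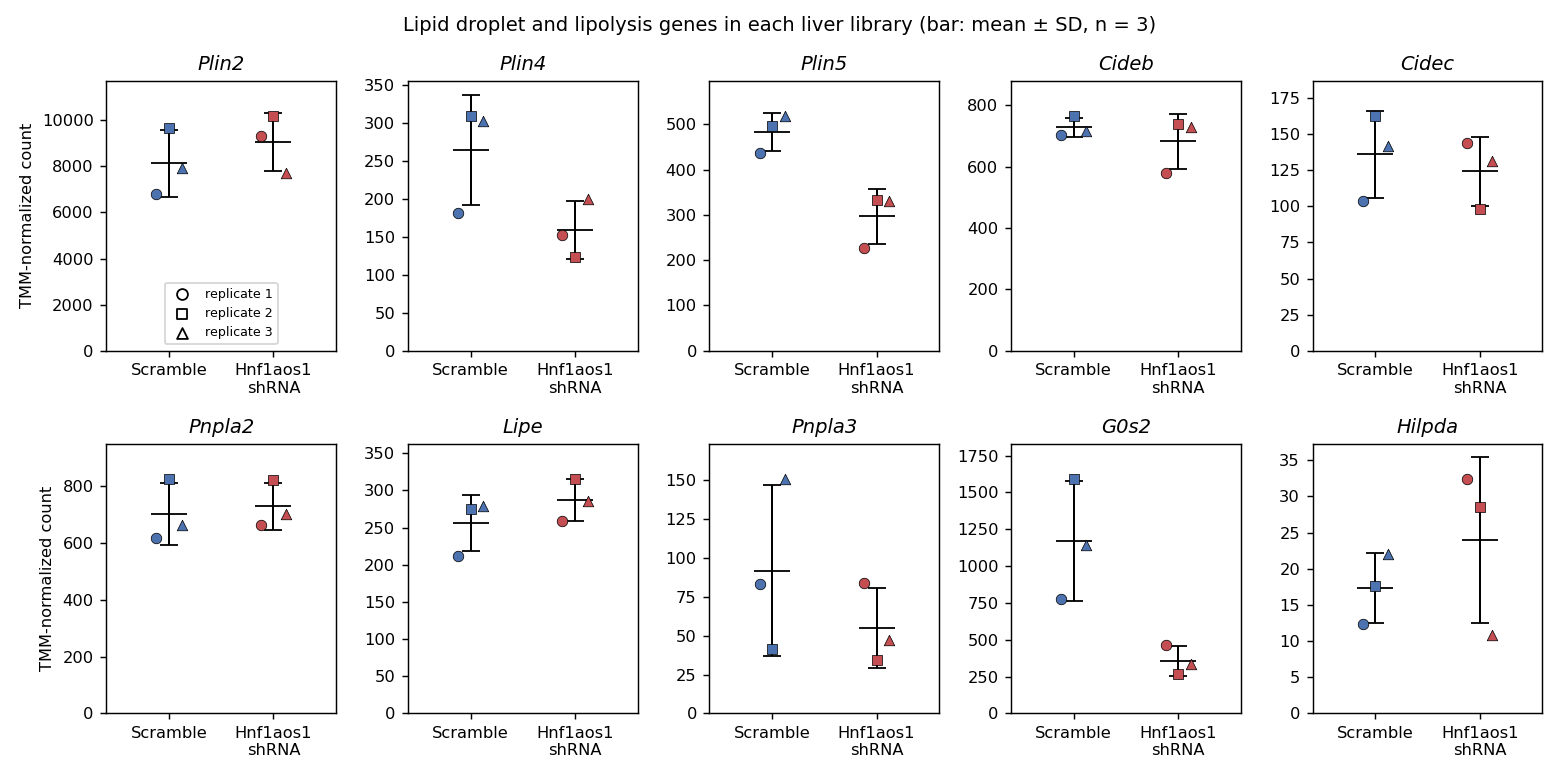
TMM-normalized counts of the 10 genes (vertical axes from 0, a separate scale for each gene) in each library, with symbols for the replicate number and bars for mean ± SD, n = 3 mice per group. The groups stand apart for Plin5 (227 to 334 against 436 to 518) and G0s2 (264 to 463 against 779 to 1592) and overlap for the other 8 genes.

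Plin4 and Plin5 are neighbors, so their surroundings are given here with the sequence upstream of each. In the GENCODE annotation of GRCm38, which was read for this purpose because the count table holds no coordinates, both lie on the minus strand of chromosome 17, Plin4 at chr17:56100591-56109803 and Plin5 at chr17:56111601-56117596, with 1798 bases between them. The next gene, Lrg1, which codes for a secreted glycoprotein of the acute phase, is on the same strand, with 2082 bases between it and Plin5. Lrg1 had 2147, 2522 and 2444 normalized counts in rAAV8-Scramble replicates 1, 2 and 3 and 6837, 8814 and 3079 in rAAV8-Hnf1aos1 replicates 1, 2 and 3. All 3 knockdown libraries were above all 3 controls, opposite in direction to both perilipins, but Lrg1 did not pass the test (log2 fold change 1.40 ± 0.41 SE, adjusted p = 0.129 by edgeR). On the other side, Hdgfl2 overlaps the end of Plin4 by 17 bases on the opposite strand, and its log2 fold change was -0.21 (adjusted p = 0.286 by edgeR).

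The following sequences, from RefSeq on GRCm38.p6, cover the bases 250 to 51 upstream of the annotated start of the 3 genes with the lowest unadjusted p-values, at chr17:56117599-56117798 for Plin5, chr17:56109833-56110032 for Plin4 and chr1:193273239-193273438 for G0s2, all read 5′ to 3′ on the minus strand. Plin5 has another RefSeq start, whose window at chr17:56117349-56117548 is not printed and held no AGGTCA. Capitals mark AGGTCA, the half-site that many nuclear receptors bind.
Plin5: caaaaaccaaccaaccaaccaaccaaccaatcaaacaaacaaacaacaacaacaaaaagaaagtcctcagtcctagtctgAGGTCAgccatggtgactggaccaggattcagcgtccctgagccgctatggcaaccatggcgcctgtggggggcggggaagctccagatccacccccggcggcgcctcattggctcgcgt
Plin4: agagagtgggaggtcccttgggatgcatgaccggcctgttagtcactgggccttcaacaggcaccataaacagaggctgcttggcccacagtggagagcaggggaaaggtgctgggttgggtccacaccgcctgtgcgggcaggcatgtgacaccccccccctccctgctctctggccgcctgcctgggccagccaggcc
G0s2: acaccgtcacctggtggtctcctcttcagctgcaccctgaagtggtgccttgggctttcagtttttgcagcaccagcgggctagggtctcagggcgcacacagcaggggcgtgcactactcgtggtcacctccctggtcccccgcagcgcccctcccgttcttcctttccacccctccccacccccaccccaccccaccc

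Motifs were searched on both strands in the 250 bases upstream of each RefSeq start, in 14 windows of the 10 genes and 32851 windows of all genes. The paired half-site of peroxisome proliferator-activated receptors (PPARs), 2 half-sites with 1 base between them, was in none of the 14 windows and in 0.338% of all windows. The single half-site AGGTCA, which was added after the sequences had been seen, was in a window of Plin5, 170 bases before the start, and of Plin2, where it is on the opposite strand and 218 bases before the start, and in 14.0% of all windows. CACGTG, the E-box, was in a window of Lipe and in 6.02% of all, and the sterol element TCACNCCAC was in none of the 14 and in 1.05% of all. ACGTG, the core of the hypoxia element, was in 16.6% of all windows and in those of Hilpda (43 bases before a start) and Lipe, where it overlaps the E-box. None of the motifs other than AGGTCA was in the windows of Plin5, Plin4 or G0s2. The content of G and C was above the median of all windows, 52.4%, in 12 of the 14 windows, among them those of Plin5, Plin4 and G0s2.

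The CIDE genes differed little between the groups. Cideb, the CIDE protein of hepatocytes, had 703, 764 and 715 normalized counts in rAAV8-Scramble replicates 1, 2 and 3 and 579, 737 and 730 in rAAV8-Hnf1aos1 replicates 1, 2 and 3. Apart from rAAV8-Hnf1aos1 replicate 1, the 5 libraries lay within 703 and 764 counts. Its log2 fold change was -0.09 (95% interval -0.33 to 0.14, adjusted p = 0.647 by edgeR), and it overlaps Nop9 on the opposite strand by 1451 bases.

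Cidec, which drives large droplets in adipocytes and in fatty liver, had 104, 163 and 142 normalized counts in rAAV8-Scramble replicates 1, 2 and 3 and 144, 97.9 and 131 in rAAV8-Hnf1aos1 replicates 1, 2 and 3. The ranges of the groups nearly coincided. Its log2 fold change was -0.13 (95% interval -0.56 to 0.31, adjusted p = 0.752 by edgeR). Scaled by the spike-ins, which moved the median over the whole transcriptome to 0.20, Cideb (0.11) and Cidec (0.071) lay above 0 and below that median.

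None of the 3 lipase genes passed the test in edgeR or DESeq2, nor had any of them an unadjusted p under the threshold. Pnpla2 had 617, 827 and 663 normalized counts in rAAV8-Scramble replicates 1, 2 and 3 and 665, 824 and 702 in rAAV8-Hnf1aos1 replicates 1, 2 and 3. Both groups covered the same range, and the log2 fold change was 0.06 (95% interval -0.22 to 0.33, adjusted p = 0.827 by edgeR), with -0.015 when libraries were scaled by their totals. The interval leaves room for a change to between 86.1% and 126% of the rAAV8-Scramble level.

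For Lipe the normalized counts were 212, 276 and 279 in rAAV8-Scramble replicates 1, 2 and 3 and 259, 316 and 285 in rAAV8-Hnf1aos1 replicates 1, 2 and 3. rAAV8-Scramble replicate 1 was the lowest, and the other 5 libraries overlapped. The log2 fold change was 0.17 (95% interval -0.13 to 0.46, adjusted p = 0.490 by edgeR). The gene lies within the antisense gene 4732471J01Rik, whose log2 fold change was -0.63 (adjusted p = 0.0897 by edgeR). The strand setting of the counting is not given in the sources used here, so reads of overlapping genes may not be fully separated. Of the other genes within 5 kb of a member that had enough counts, Rplp2 (0.22, adjusted p = 0.210) and Cracr2b (-0.15, adjusted p = 0.835) beside Pnpla2, and Nop9 (0.18, adjusted p = 0.350) and Ltb4r2 (0.33, adjusted p = 0.649) beside Cideb, were not called by edgeR. Cxcl17, beside Lipe, had too few counts.

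Pnpla3, a lipid droplet protein related to Pnpla2 whose transcript responds strongly to feeding, had the widest spread of the 10 among the controls. Its values were 83.1, 41.7 and 151 normalized counts in rAAV8-Scramble replicates 1, 2 and 3 and 83.9, 34.2 and 47.1 in rAAV8-Hnf1aos1 replicates 1, 2 and 3. The coefficient of variation was 59.9% in rAAV8-Scramble and 46.8% in rAAV8-Hnf1aos1, and the 0.60-fold level in rAAV8-Hnf1aos1 rested largely on rAAV8-Scramble replicate 3. The log2 fold change was -0.74 ± 0.53 (SE), as far below 0 as that of Plin5, but its interval of -2.00 to 0.53 included 0 (adjusted p = 0.450 by edgeR). Leaving out 1 library at a time moved it between -1.18 and -0.19, the latter without rAAV8-Scramble replicate 3.

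The 2 inhibitors of Pnpla2 lay on opposite sides of 0. G0s2 showed the largest difference among the 10 genes, with 779, 1592 and 1144 normalized counts in rAAV8-Scramble replicates 1, 2 and 3 and 463, 264 and 336 in rAAV8-Hnf1aos1 replicates 1, 2 and 3. Every rAAV8-Hnf1aos1 library was below every rAAV8-Scramble library, and the spread within rAAV8-Scramble was wide (coefficient of variation 34.8%). The level was 30.3% of that in rAAV8-Scramble (95% interval 16.6% to 55.3%), a log2 fold change of -1.72 ± 0.34 (SE). With an unadjusted p of 0.00353 and an adjusted p of 0.0529 by edgeR, G0s2 missed the threshold.

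G0s2 stood close to the threshold, and its call depended on the setting. It was called lower in 5 of the 9 alternatives without a replicate block, with an adjusted p of 0.000249 in DESeq2, 0.0413 with spike-in scaling by edgeR and 0.0414 with a minimum mean of 50 counts, and in both limma fits on TPM. Over the 9 alternatives its log2 fold change stayed between -1.79 and -1.53, and with 1 library left out between -1.97 and -1.44. edgeR called G0s2 in 1 of the 6 fits that left out 1 library. That fit, without rAAV8-Scramble replicate 1, its lowest control, had an adjusted p of 0.0181. The other fits gave adjusted p-values of 0.0689 to 0.168, and the replicate block gave 0.155 by edgeR. In the GRCm38 annotation the gene, at chr1:193272161-193273217 on the minus strand, lies inside the longer gene Lamb3 on the opposite strand. Lamb3 had 54.4 to 72.4 normalized counts in rAAV8-Scramble and 34.3 to 47.5 in rAAV8-Hnf1aos1, below all those of G0s2. Its log2 fold change was also below 0, at -0.53 (adjusted p = 0.192 by edgeR).

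Hilpda, a small droplet protein induced by hypoxia and fatty acids, had few counts, with 12, 16 and 20 raw counts in rAAV8-Scramble replicates 1, 2 and 3 and 34, 30 and 12 in rAAV8-Hnf1aos1 replicates 1, 2 and 3. In normalized counts these were 12.3, 17.6 and 22.0 against 32.4, 28.5 and 10.9. rAAV8-Hnf1aos1 replicates 1 and 2 exceeded all controls, while replicate 3 was below them. The log2 fold change of 0.47 had an interval of -0.47 to 1.40 (adjusted p = 0.546 by edgeR), and its coefficient of variation in rAAV8-Hnf1aos1 was 48.0%.

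Ratios of 2 genes in the same library do not depend on how libraries are scaled. They are built from the same counts as the fold changes above, so a difference in a ratio is not an independent result. Raw counts of Pnpla2 per count of its inhibitor G0s2 were 0.792, 0.519 and 0.580 in rAAV8-Scramble replicates 1, 2 and 3 and 1.43, 3.12 and 2.09 in rAAV8-Hnf1aos1 replicates 1, 2 and 3. All 3 knockdown libraries had a higher ratio than any control. Per length, as a ratio of TPM, the values were 0.246, 0.161 and 0.180 against 0.445, 0.968 and 0.648, so G0s2 had the higher level of the 2 genes in all 6 libraries. On either scale the difference was 1.76 on the log2 scale (1.48 to 2.04 with 1 library left out).

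Counts of Plin2 per count of Plin5 were 15.6, 19.5 and 15.3 in rAAV8-Scramble replicates 1, 2 and 3 and 41.1, 30.5 and 23.3 in rAAV8-Hnf1aos1 replicates 1, 2 and 3. The ratio was higher in all 3 knockdown libraries than in any control, by 0.88 on the log2 scale (0.68 to 1.09 with 1 library left out). For both ratios the exact two-sided permutation test gave p = 0.1, the smallest that 3 against 3 allows, and 0.15 after adjustment over the 3 ratios. Cidec per count of Cideb was 0.186 ± 0.034 (SD, n = 3) in rAAV8-Scramble and 0.187 ± 0.058 (SD, n = 3) in rAAV8-Hnf1aos1, a log2 difference of -0.02 that took either sign when 1 library was left out (exact permutation p = 1.0).

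**Figure D3:**
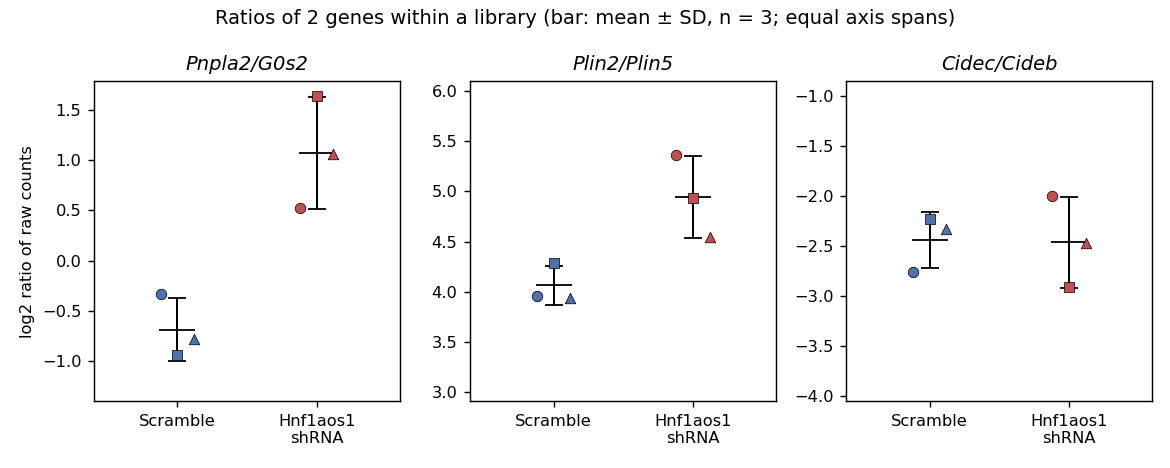
Log2 of the ratio of raw counts of 2 genes in the same library (points, with symbols for the replicate number) and mean ± SD, n = 3 mice per group, on axes of equal span. The groups stand apart for Pnpla2/G0s2 and Plin2/Plin5, by 1.76 and 0.88 between the means, and overlap for Cidec/Cideb.

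Levels of different genes were compared as TPM, which is scaled by length. Plin2 was the most abundant in every library, at 264 TPM over the 6 libraries (range 212 to 299). G0s2 came next in the controls, at 181 ± 60.9 TPM (SD, n = 3), ahead of Cideb at 80.6 ± 3.10 TPM (SD, n = 3), and its lowest control library was above the highest of Cideb. In rAAV8-Hnf1aos1 the ranges of these 2 genes overlapped, with G0s2 at 52.3 ± 16.7 TPM (SD, n = 3) and Cideb at 71.5 ± 7.18 TPM (SD, n = 3).

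Plin5 and Pnpla2 were near the same level in the controls, at 30.1 ± 3.23 and 33.6 ± 4.82 TPM (SD, n = 3), with overlapping ranges. In the knockdown livers Plin5 was at 17.4 ± 3.06 TPM (SD, n = 3) and Pnpla2 at 33.2 ± 2.996 TPM (SD, n = 3), and the ranges did not overlap. Below them came Cidec and Lipe, at 9.45 and 7.80 TPM over the 6 libraries and not separated in either group. Plin4 (3.78 TPM), Hilpda (2.37 TPM) and Pnpla3 (1.84 TPM) were the lowest, and their order changed from library to library.

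The 10 genes together summed to 485, 720 and 621 TPM in rAAV8-Scramble replicates 1, 2 and 3 and to 496, 489 and 425 TPM in rAAV8-Hnf1aos1 replicates 1, 2 and 3. The share of G0s2 in that sum was 24.6%, 33.4% and 29.4% in the controls and 14.2%, 7.75% and 11.4% after the knockdown, in the same order of replicates. Plin2 made up 41.6% to 43.7% of the sum in rAAV8-Scramble and 53.5% to 61.0% in rAAV8-Hnf1aos1. Because the shares add up to the whole, they do not move independently of each other.

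**Figure D4:**
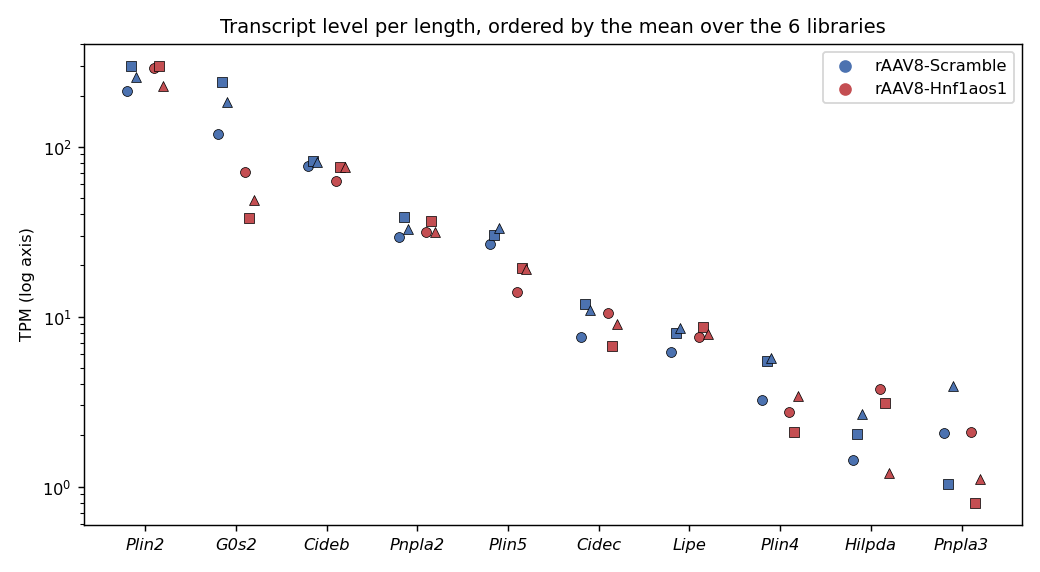
TPM of each gene in each library on a log axis, with genes ordered by their mean over the 6 libraries, colors for the group and symbols for the replicate number as in the plot of counts. Levels run from 264 TPM for Plin2 to 1.84 TPM for Pnpla3, and G0s2 is above Cideb in the controls (119 to 241 TPM against 77.0 to 82.8) but not in 2 of the 3 knockdown libraries.

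Within rAAV8-Scramble the libraries differed in a shared way, since replicate 1 was the lowest of the 3 for 9 of the 10 genes, with Pnpla3 as the exception. Over all tested genes replicate 1 was the lowest for 33.5%. In rAAV8-Hnf1aos1 the lowest value was spread over the libraries, with 4 genes lowest in replicate 1, 4 in replicate 2 and 2 in replicate 3. The leave-one-out values of G0s2 and Plin4 depend on this library: both were called without it.

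Markers of cells other than hepatocytes also differed between libraries. The liver pieces were bulk tissue, in which fewer cells of a type and less RNA per cell cannot be told apart. All 7 skeletal muscle markers had log2 fold changes below 0 (median -1.36, 1 called lower, Actn3), and their summed normalized counts were 892, 3276 and 1883 in rAAV8-Scramble replicates 1, 2 and 3 and 899, 856 and 409 in rAAV8-Hnf1aos1 replicates 1, 2 and 3. Within rAAV8-Scramble this sum had the same order as G0s2, replicate 2 over 3 over 1, and within rAAV8-Hnf1aos1 the orders differed, 1 over 2 over 3 for muscle and 1 over 3 over 2 for G0s2. Without rAAV8-Scramble replicate 2, which held the most muscle transcripts, the log2 fold change of G0s2 was -1.44 and that of Plin5 -0.69. Neither passed in that fit (adjusted p = 0.0689 and 0.0702 by edgeR), and Plin4 was at -0.61 (adjusted p = 0.2465). That fit does not remove the difference in muscle transcripts, since the sum in rAAV8-Scramble replicate 3 was still above those of all rAAV8-Hnf1aos1 libraries.

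Of 8 adipocyte markers 4 had enough counts to test, 3 of them below 0, and Cfd was called lower (log2 fold change -1.16, adjusted p = 0.0411 by edgeR). Adrb3 lay above 0 (0.34, adjusted p = 0.250 by edgeR). The summed level of all 8 was 25.5 to 36.9 TPM in rAAV8-Scramble and 17.5 to 23.2 TPM in rAAV8-Hnf1aos1. In normalized counts the sums overlapped, at 251, 361 and 287 in rAAV8-Scramble and 248, 263 and 211 in rAAV8-Hnf1aos1. Plin1, the perilipin that defines adipocytes, had 2.20 to 11.0 normalized counts in any library, and Retn and Cidea were below 10 raw counts in all 6. No marker of any list was at 0 in every library. All 8 macrophage markers had log2 fold changes above 0 (median 0.43), with Adgre1 and Clec4f called higher by edgeR. With 1 library left out, edgeR called Adgre1 in 1 of 6 fits and Clec4f in 2. DESeq2 called 3, Marco, Cd5l and Clec4f, but not Adgre1 (adjusted p = 0.0791). The macrophage markers summed to 143 to 177 TPM in rAAV8-Scramble and 177 to 229 TPM in rAAV8-Hnf1aos1. These sums overlapped slightly, with 177.2 in rAAV8-Scramble replicate 1 and 176.6 in rAAV8-Hnf1aos1 replicate 3. All 8 stellate cell markers lay below 0 (median -0.23) with 0 called by edgeR or DESeq2 and 1 at an unadjusted p under 0.05, and they summed to 259 to 317 TPM in rAAV8-Scramble and 207 to 276 TPM in rAAV8-Hnf1aos1. Of the 8 hepatocyte markers 4 lay above and 4 below 0, and Tat was called lower. The part of these other cells in the values of G0s2, Plin4 and Plin5 was not tested.

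Other genes of the pathway were taken from a list of 40 in 4 groups, of which 38 had enough counts. edgeR called 1 higher and 3 lower, while of all genes tested it called 3.09% higher and 3.23% lower. Their median log2 fold change was 0.05, beside -0.00040 over all genes tested. DESeq2 called 7 of the list, and 1227 of the 17625 genes to which it gave an adjusted p. All 4 genes called by edgeR were among the 16 other genes of lipolysis and neutral lipid turnover (median -0.10). Mgll, which completes the breakdown begun by Pnpla2 and Lipe, had 2334, 3106 and 2481 normalized counts in rAAV8-Scramble replicates 1, 2 and 3 and 1656, 1824 and 1909 in rAAV8-Hnf1aos1 replicates 1, 2 and 3. All controls were above all knockdown libraries, and Mgll was lower by edgeR (log2 fold change -0.56 ± 0.12 SE, adjusted p = 0.0211), with its call kept in 3 of the 6 fits that left out 1 library. Lipa, the acid lipase of lysosomes, fell by 0.39 on the log2 scale (adjusted p = 0.0374 by edgeR), with 5390, 6091 and 5196 normalized counts in rAAV8-Scramble and 4288, 4176 and 4260 in rAAV8-Hnf1aos1. Of the 6 fits that left out 1 library, edgeR called Lipa in 1, the one without rAAV8-Hnf1aos1 replicate 3.

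The carboxylesterases, which hydrolyze neutral lipids in the endoplasmic reticulum and on droplets, moved in both directions. Ces3b rose (log2 fold change 0.93 ± 0.15 SE, adjusted p = 0.00855 by edgeR), from a mean of 6085 ± 632 to 11621 ± 2449 normalized counts (SD, n = 3). Ces1f fell by 0.65 (adjusted p = 0.0338 by edgeR) and was called in 2 of the 6 fits that left out 1 library, while Ces3b was called in 5 and lost its call without rAAV8-Scramble replicate 3. With spike-in library sizes Ces3b alone of the 4 was called, with Mgll at -0.36 (adjusted p = 0.0760), Lipa at -0.19 (adjusted p = 0.244) and Ces1f at -0.45 (adjusted p = 0.0812) by edgeR. The Ces genes are similar copies of each other, and counting only uniquely mapped reads can understate or split them, so their values are uncertain. Abhd5, the activator of Pnpla2, had a log2 fold change of 0.48 that did not pass (adjusted p = 0.0817 by edgeR), with 490, 523 and 477 normalized counts in rAAV8-Scramble and 587, 609 and 878 in rAAV8-Hnf1aos1. It was singled out here for its role after its values had been seen. None of the 11 genes of droplet assembly, the 10 droplet-bound enzymes or the coat protein Plin3 passed edgeR's test. An unadjusted p under 0.05 was found for 1 gene of droplet assembly and 2 droplet-bound enzymes, DESeq2 called 0 and 1 of them, and Plin1 and Cidea had too few counts.

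**Figure D5:**
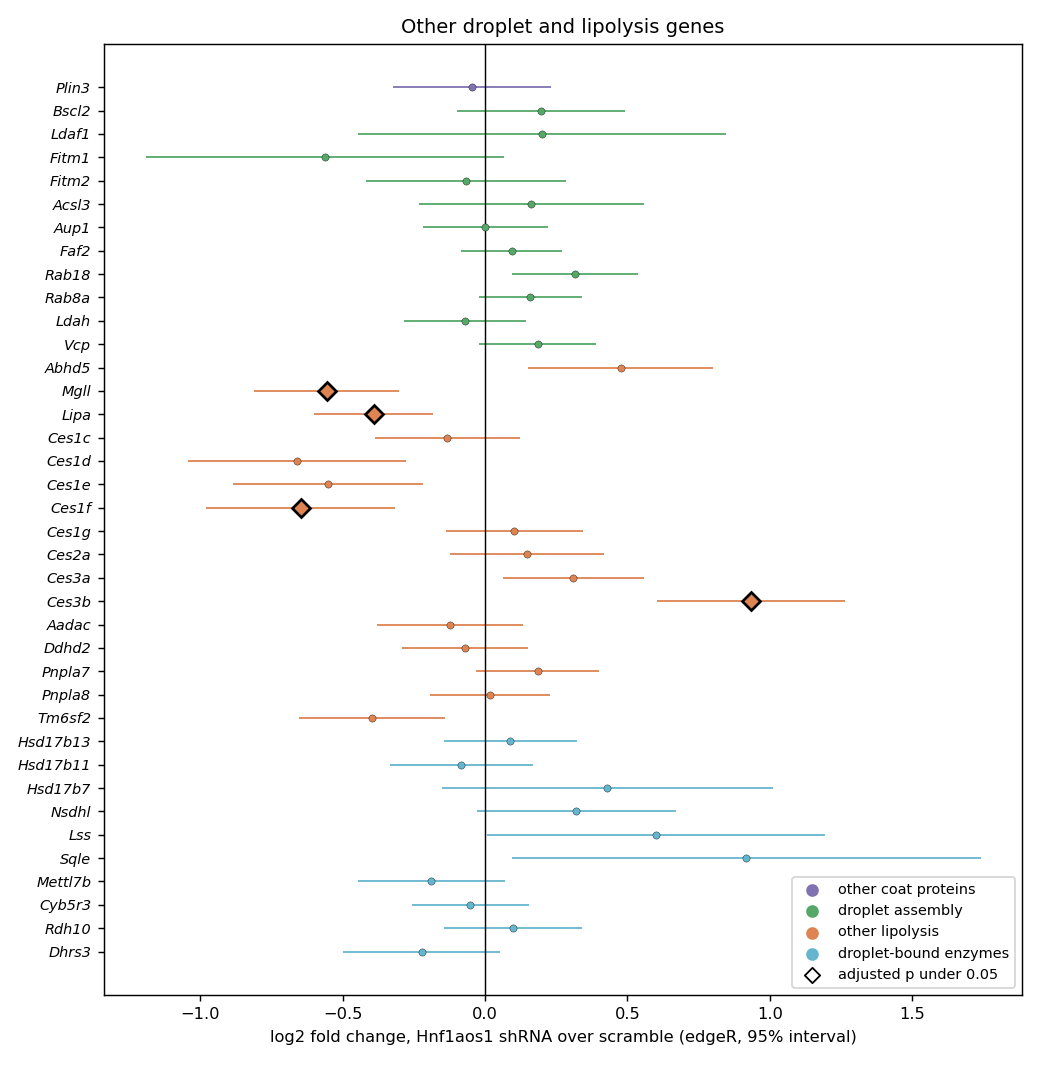
Log2 fold change in rAAV8-Hnf1aos1 over rAAV8-Scramble (points) with its 95% interval (lines) from edgeR for the 38 tested genes of the list, colored by group, with diamonds for an adjusted p under 0.05. The 4 diamonds are Ces3b on the right and Mgll, Lipa and Ces1f on the left, all among the genes of other lipolysis.

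For the 3 genes with the smallest unadjusted p, the transcripts with the most similar profile over the 6 libraries were found by the root-mean-square (RMS) difference of centered log2 CPM among 16326 other genes. Closest to Plin5 were Gm32801 (RMS 0.051) and Akap12 (RMS 0.062). Closest to G0s2 was Ampd1 (RMS 0.18), which had at most 25.3 normalized counts in any library. Closest to Plin4 were Sema3c (RMS 0.099) and Tuba1a (RMS 0.11). The neighboring perilipins differed by an RMS of 0.32, at which Plin4 ranked 2157 among the genes nearest to Plin5 and Plin5 ranked 738 among those nearest to Plin4.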

How the data were processed

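RNA-seq of 6 mouse livers was analyzed from tables. Per the study's methods, the authors ran Trimmomatic, STAR and featureCounts, keeping exonic reads with a unique position. The deposited raw counts are whole numbers without scaling. A second table deposited by the authors holds TPM, which equals counts per length to within a coefficient of variation of 0.01% over 8983 genes with at least 100 counts in every library. The paper names GRCm38 and the labels GRCm39. The labels describe ribosomal RNA depletion and the paper poly(A) selection. Normalized counts of the authors and the table of their own DESeq2 comparison, which holds log2 fold changes and p-values, were not used.

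Here the 92 spike-in rows were left out, counts were scaled by TMM and filtered by filterByExpr, and the groups were compared with edgeR 4.0.16 in R 4.3.3 (robust glmQLFit, glmQLFTest, Benjamini-Hochberg over 16327 genes, called under 0.05). Alternatives were DESeq2 1.42.0, limma 3.58.1 (voom, and log2 TPM plus 0.1 or 1), other scalings and filters, a replicate block and each library left out. Scripts were tested on simulated data. The members, gene lists and tests were chosen with earlier results of these data known. The genes named are the 10 members, Hnf1aos1, list genes called by edgeR, genes within 5 kb of a member and the 2 nearest profiles of the 3 members with the smallest p, of which 1 gene is not reported here. Markers named singly, Abhd5, Plin1, Plin3 and Cidea fall outside this rule and were chosen after their values were seen. Sequences are from RefSeq on GRCm38.p6 and positions from GENCODE on GRCm38. No library repeated another (chi-square of 7.1 to 28.7 per gene within groups). Each library came from 1 mouse.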

Additional observations from a re-analysis of the deposited data

How the results depend on the processing

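The number of the 10 genes called, all of them lower, was 3 with DESeq2 and 2 with spike-in library sizes, with no filter, with a minimum mean of 50 counts and with both limma fits on TPM, against 1 by edgeR, and 0 to 3 with 1 library left out. Plin5 was among those called in each of these alternatives, and lost its call without rAAV8-Scramble replicate 2 or 3. Of the other droplet and lipolysis genes, 7 were called with DESeq2, 7 with library totals, 9 with spike-in library sizes and 9 with no filter, against 4, and 0 to 10 with 1 library left out (0 without rAAV8-Scramble replicate 3, 1 without rAAV8-Scramble replicate 2 or rAAV8-Hnf1aos1 replicate 2, and 10 without rAAV8-Hnf1aos1 replicate 3). The log2 fold change of Hnf1aos1 passed the threshold with DESeq2 (-0.74), voom (-0.77), no filter (-0.74) and the replicate block (-0.77), and lay between -1.01 and -0.60 with 1 library left out. Cideb changed sign with spike-in library sizes (0.11) and without a library (-0.15 to 0.0054), Cidec with spike-in library sizes (0.071) and without a library (-0.29 to 0.022), and Pnpla2 with library totals (-0.015), with TPM (-0.015 with 0.1 and -0.014 with 1 added) and without a library (-0.036 to 0.19). The Cidec/Cideb ratio differed by -0.25 to 0.20 without a library. Of the 10 genes, 6 kept their place in the order of TPM in rAAV8-Scramble replicate 3 and 4 in rAAV8-Hnf1aos1 replicate 2. The cause of these shifts was not tested.

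Spike-in library sizes raised the median over the whole transcriptome by 0.20 and moved the calls from 505 higher and 527 lower to 3030 and 364. The split was 319 and 729 with library totals, 200 and 394 with TPM plus 0.1, and 204 and 437 with TPM plus 1, and no filter called 1902 genes. Calls over all genes ran from 103 without rAAV8-Scramble replicate 3 to 1881 without rAAV8-Hnf1aos1 replicate 3. With the replicate number as a block, edgeR called 1 of the 10 genes (Plin5), 3 of the other droplet and lipolysis genes (Lipa was lost) and 878 genes in all. Same-numbered libraries of the groups did not deviate together (r = -0.023, 0.023 and 0.0032). These values give no sign that the numbers pair the mice, but they cannot show that no pairing exists.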
